A study of Homo sapiens with 6 samples.

Results

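The genes examined were 9 transcription factors that set luminal or basal identity in the breast epithelium. They were GATA3, FOXA1, ESR1, PGR, ELF3, ELF5, EHF, TP63 and FOXC1. They were taken by gene symbol from a table of 61806 genes, and each symbol matched 1 gene. RNA was sequenced from MDA-MB-231, a human triple-negative breast cancer cell line, in 6 libraries with 2 per line. The control line is titled shNC and described as carrying a control vector, and the other lines carried the hairpin shHMGA2-1 or shHMGA2-2 against HMGA2, a chromatin protein that binds A/T-rich DNA. All lines shared the MDA-MB-231 background, and the HMGA2 hairpins were delivered by lentivirus with puromycin selection. Per the study's methods, knockdown lines were expanded from single clones, so each shHMGA2 group stands for 1 clonal line, while clonality is not stated for shNC. The library names write WT for the shNC samples and SH2 for the shHMGA2-1 samples, and the sample titles were followed here. Whether the controls carried a vector or were the untransduced parent line is therefore not settled, and effects of transduction, selection and cloning cannot be told apart from those of the hairpins in any comparison with shNC. Nothing in the labels says that the 2 libraries of a line came from separate cultures, so p-values measure only the spread between these libraries, which may be technical.

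Mammary ducts have an inner layer of luminal cells and an outer layer of basal, myoepithelial cells. FOXA1 is a forkhead factor that opens chromatin for the estrogen receptor, GATA3 is a zinc finger factor needed to keep luminal cells differentiated, and the estrogen and progesterone receptors (ESR1, PGR) define hormone-sensing luminal cells. ELF3, ELF5 and EHF are ETS factors of epithelia, with ELF5 known for the milk-producing alveolar lineage. TP63 encodes p63, which maintains the basal layer, and FOXC1 is a forkhead factor known as a marker of basal-like breast cancer.

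The promoters of the 4 members whose level is followed most closely are shown because HMGA2 prefers A/T-rich DNA and because GATA, forkhead and ETS factors can bind at each other's genes. Each is the window of 250 bases before a RefSeq start in GRCh38.p14. A start was available for all 9 members, in 22 windows. Capitals mark motifs found on either strand. For GATA factors the letters searched were AGATAA, found in 9.17% of all 35116 RefSeq windows of this length. For forkhead factors they were TGTTTAC, which 2.98% of windows hold. For ETS factors they were GGAAGT, which 19.5% hold. The windows are GATA3 at chr10:8045083-8045332 (plus strand), EHF at its second listed start, chr11:34632316-34632565 (plus strand), FOXA1 at chr14:37595250-37595499 (minus strand) and FOXC1 at chr6:1609665-1609914 (plus strand).
GATA3: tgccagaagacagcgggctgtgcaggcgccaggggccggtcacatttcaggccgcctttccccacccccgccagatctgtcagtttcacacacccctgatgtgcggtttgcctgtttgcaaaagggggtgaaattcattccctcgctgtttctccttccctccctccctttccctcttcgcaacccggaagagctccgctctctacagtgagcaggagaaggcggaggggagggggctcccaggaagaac
EHF: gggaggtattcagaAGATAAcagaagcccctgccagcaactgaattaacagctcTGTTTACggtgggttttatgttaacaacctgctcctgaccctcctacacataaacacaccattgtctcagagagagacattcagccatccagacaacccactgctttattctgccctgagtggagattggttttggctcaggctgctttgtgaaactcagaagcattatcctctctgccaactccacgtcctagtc
FOXA1: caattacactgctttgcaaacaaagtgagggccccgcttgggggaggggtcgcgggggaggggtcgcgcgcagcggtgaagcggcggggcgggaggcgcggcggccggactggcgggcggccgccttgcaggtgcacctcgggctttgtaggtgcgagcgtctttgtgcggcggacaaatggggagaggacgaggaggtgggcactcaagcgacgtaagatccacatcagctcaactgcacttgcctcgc
FOXC1: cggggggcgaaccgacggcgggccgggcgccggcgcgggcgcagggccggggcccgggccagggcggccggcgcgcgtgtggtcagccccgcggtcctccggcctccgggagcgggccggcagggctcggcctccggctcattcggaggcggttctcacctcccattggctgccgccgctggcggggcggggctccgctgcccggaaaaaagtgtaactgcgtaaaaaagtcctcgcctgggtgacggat

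The EHF window held AGATAA 236 bases and TGTTTAC 196 bases before the start, and is shown for that reason, while the window of its first listed start held none of the 3. For the other genes the first listed start is shown, and those GATA3, FOXA1 and FOXC1 windows held none of the 3 motifs. Among the 22 member windows, 1 held the GATA letters, 2 the forkhead letters (EHF and ELF5) and 2 the ETS letters (GATA3 at another start and ESR1). A/T content was 52.4% in the EHF window shown and 50.0% at its first start, and it ranged from 25.2% to 44.4% over the 6 GATA3 windows (39.2% in the one shown). It was 32.8% in the FOXA1 window and 23.2% in the FOXC1 window, against a median of 42.0% over all windows. Which start the cells used is not given by counts per gene.

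HMGA2 (ENSG00000149948, chromosome 12, 65824460 to 65966291) was counted 2126 and 2161 times in shNC, 858 and 989 times in shHMGA2-1, and 435 and 482 times in shHMGA2-2. Its log2 fold change was -1.29 (SE 0.09, edgeR adjusted p = 1.97e-11) in shHMGA2-1 and -2.31 (SE 0.09, edgeR adjusted p = 1.81e-16) in shHMGA2-2. HMGA2 was thus lowest in shHMGA2-2, and the lines differed by -1.01 (SE 0.10, edgeR adjusted p = 2.89e-09). Libraries held 16461178 to 17167293 counts, so that 3 counts, the floor used here for a gene that is not detected, equal 0.175 to 0.182 CPM (counts scaled to library size). Floors and intervals cover counting error only. VIM, the intermediate filament of mesenchymal cells, had mean levels of 425, 423 and 411 FPKM (fragments scaled to exon length and library size) in shNC, shHMGA2-1 and shHMGA2-2. CDH1, the epithelial cadherin, had at most 4 counts in any library. The tumor suppressor genes CDKN2A and CDKN2B had 0 counts in all 6 libraries.

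Of the 9 members, 7 exceeded 3 counts in at least 1 library and 2, PGR and ELF5, in none. A total of 5 members passed the filter on low counts and were tested (GATA3, FOXA1, EHF, TP63, FOXC1), and 4 were not (ESR1, PGR, ELF3, ELF5). EHF passed only through shHMGA2-2, where it was high, so that it had to differ once tested. Its place in the counts below is no support for them. TP63 would also not have passed without shHMGA2-2, where it was highest, so its higher level there than in shHMGA2-1 is no support either. In shHMGA2-2 against shNC, 4 tested members had an adjusted p under 0.05, with GATA3 and EHF higher and FOXA1 and FOXC1 lower. The share of all 16110 tested genes at that threshold was 58.8%. With a change of at least 2-fold as well, the criterion for a differentially expressed gene (DEG), 3 members were called, against 21.3% of all genes. In shHMGA2-1 against shNC, FOXA1 and TP63 were lower (adjusted p under 0.05 for 33.5% of all genes) and TP63 alone was a DEG (8.49% of all genes).

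Between the knockdown lines, all 5 tested members had an adjusted p under 0.05, with GATA3, EHF and TP63 higher and FOXA1 and FOXC1 lower in shHMGA2-2. At that threshold stood 50.2% of all genes. Of these members, 4 were DEGs, against 15.1% of all genes. With the 4 shHMGA2 libraries pooled and set against shNC, 0 members passed by edgeR, where 5.26% of all genes had an adjusted p under 0.05 and 3.09% were DEGs. In that pooled comparison 0 members had an unadjusted p under 0.05, and DESeq2 called 0. Comparisons with shNC share the same 2 control libraries.

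**Figure D1:**
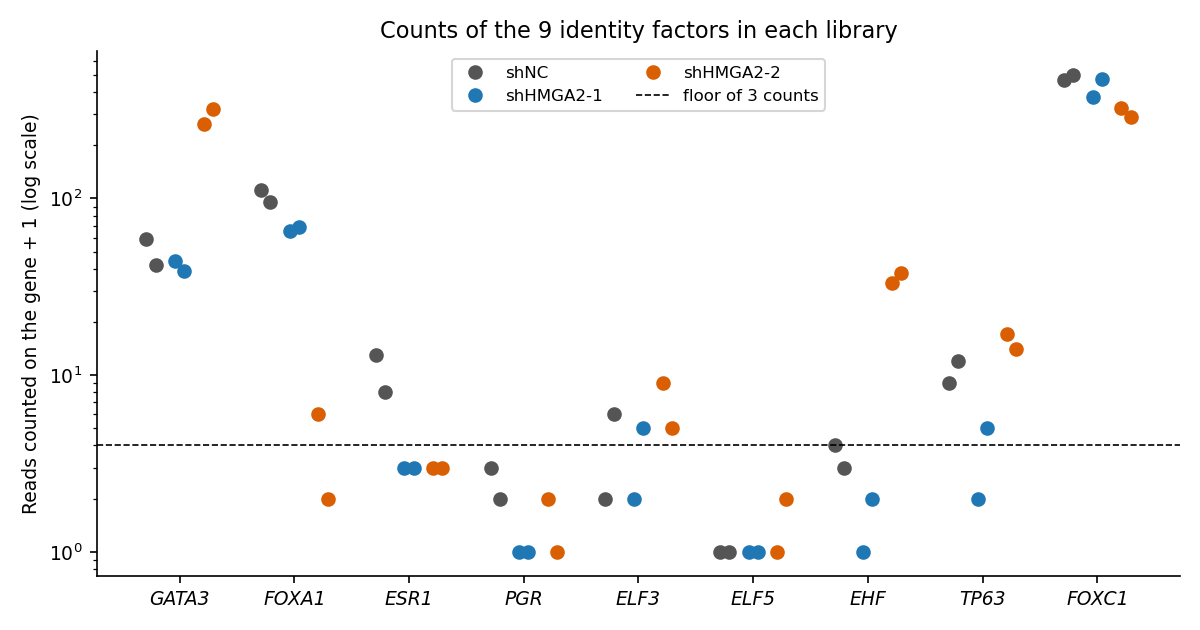
Reads counted on each of the 9 factors, plus 1, on a log axis, with 1 point per library colored by line and the floor of 3 counts as a dashed line. FOXC1 had the most counts in every library but 1, GATA3 rose to 262 and 318 counts in shHMGA2-2, and FOXA1 fell to 5 and 1.

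GATA3 (ENSG00000107485) spans 8045378 to 8075198 of chromosome 10 (plus strand). It was counted 58 and 41 times in shNC, 43 and 38 times in shHMGA2-1, and 262 and 318 times in shHMGA2-2. Per length and depth, its level was 1.01 and 0.71 FPKM in shNC, 0.74 and 0.65 FPKM with shHMGA2-1, and 4.69 and 5.65 FPKM with shHMGA2-2. The shNC and shHMGA2-1 levels overlapped in FPKM, and both shHMGA2-2 libraries were far above them. With the scaling used for the test they did not quite overlap, at 3.56 and 2.52 CPM in shNC and 2.48 and 2.24 CPM in shHMGA2-1. Against shNC, GATA3 rose 5.53-fold in shHMGA2-2 (log2 2.47, SE 0.19, edgeR adjusted p = 3.96e-11). In shHMGA2-1 its log2 fold change was -0.37 (SE 0.25, edgeR adjusted p = 0.278), and the ratio of summed counts to shNC was 0.775 (95% interval 0.57 to 1.05). Directly compared, shHMGA2-2 stood 7.13-fold above shHMGA2-1 (log2 2.83, SE 0.19, edgeR adjusted p = 9.26e-12). GATA3 met the DEG criterion in both of these comparisons under 14 of 14 alternative settings. In these bulk libraries, a change in the share of cells with a transcript and a change in its amount per cell cannot be told apart.

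FOXA1 (ENSG00000129514), on the minus strand of chromosome 14 from 37589552 to 37596059, moved the other way in shHMGA2-2. Its counts were 110 and 94 in shNC, 64 and 68 with shHMGA2-1, and 5 and 1 with shHMGA2-2. The corresponding levels were 1.47 and 1.25 FPKM, 0.84 and 0.90 FPKM, and 0.07 and 0.01 FPKM. The lines did not overlap, with shHMGA2-1 between the other two. FOXA1 was 34.5-fold lower in shHMGA2-2 than in shNC (log2 -5.11, SE 0.40, edgeR adjusted p = 7.82e-11), and the interval from counting error alone was 16.2 to 99.1-fold. The size of this fall rests on few reads, as the log2 change was -6.60 without shHMGA2-2 replicate 1 and -4.38 without replicate 2. In shHMGA2-1, FOXA1 was 1.63-fold lower (log2 -0.71, SE 0.23, edgeR adjusted p = 0.0204), under the 2-fold criterion. Over the alternatives, the adjusted p of the shHMGA2-1 change ran from 0.00915 to 0.179. It missed 0.05 by DESeq2, by limma on log2(FPKM + 0.1) and without either shNC library or shHMGA2-1 replicate 1. Between the knockdown lines the log2 difference was -4.40 (SE 0.44, edgeR adjusted p = 7.02e-09), and without shHMGA2-2 replicate 1 it was -5.90 and without replicate 2 it was -3.67.

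GATA3 and FOXA1 were also set against each other within each library. The ratio of GATA3 to FOXA1 counts was 0.527 and 0.436 in shNC, 0.672 and 0.559 with shHMGA2-1, and 52.4 and 318 with shHMGA2-2. The last of these rests on a single FOXA1 read.

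The hormone receptors were near the floor in every line. ESR1 (ENSG00000091831, chromosome 6, 151656691 to 152129619, plus strand) had 12 and 7 counts in shNC and 2 counts in each of the 4 shHMGA2 libraries. It did not pass the filter, so no model was fitted, and summed over libraries its depth-scaled count in shNC was 5.02 times that of each knockdown line (95% counting interval 1.67 to 20.3). ESR1 overlaps the antisense gene SYNE1 by 7933 bases. SYNE1, a nuclear envelope protein, fell in the same lines, with 1034 and 990 counts in shNC, 786 and 770 with shHMGA2-1, and 98 and 113 with shHMGA2-2. As the strand setting of the counting is not given in the sources used here, reads of ESR1 and SYNE1 cannot be told apart within the overlap. PGR (ENSG00000082175, chromosome 11, 101029624 to 101129813, minus strand) had 2 and 1 counts in shNC, 0 and 0 with shHMGA2-1, and 1 and 0 with shHMGA2-2, and was not detected.

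Among the epithelial ETS factors, EHF alone passed the filter on low counts, and it was above the floor in shHMGA2-2 only. It was still low there, as 11.2% and 12.2% of all tested genes had a lower FPKM in these libraries. EHF (ENSG00000135373, chromosome 11, 34621093 to 34663288, plus strand) had 3 and 2 counts in shNC, 0 and 1 with shHMGA2-1, and 32 and 37 with shHMGA2-2. Its level in shHMGA2-2 was 0.29 and 0.34 FPKM, and both other lines were at or under the floor. The ratio of shHMGA2-2 to shNC was 13.1 (95% counting interval 5.33 to 41.5), with an edgeR adjusted p of 1.24e-05. EHF met the DEG criterion in 12 of 13 alternatives in each comparison with shHMGA2-2, and not with limma on log2(FPKM + 1), where its log2 change against shNC was 0.36. Against shHMGA2-1 the ratio was 68.9 (95% counting interval 12.0 to 2760, edgeR adjusted p = 1.16e-06), a wide interval because shHMGA2-1 held 1 count in all. Its log2 value there was 5.78, 4.92 without shHMGA2-1 replicate 1 and 8.08 without replicate 2, when the remaining shHMGA2-1 library had 0 counts. No fold is given between shNC and shHMGA2-1.

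ELF5 (ENSG00000135374) is the neighbor of EHF, 95899 bases away on the minus strand of chromosome 11, from 34478791 to 34525193. It had 0 counts in 5 libraries and 1 count in shHMGA2-2 replicate 2, and was not detected. APIP, which follows EHF on the chromosome and acts in methionine salvage, rose in shHMGA2-2 by 0.60 on the log2 scale (edgeR adjusted p = 2.33e-06). ELF3 (ENSG00000163435, chromosome 1, 202007945 to 202017183, plus strand) had 1 and 5 counts in shNC, 1 and 4 with shHMGA2-1, and 8 and 4 with shHMGA2-2. The lines overlapped, and the ratio of shHMGA2-2 to shNC was 1.89 (95% counting interval 0.657 to 6.14). ELF3-AS1, an antisense RNA that overlaps ELF3 by 2519 bases, had 51 to 94 counts in each library. The share of its reads that could come from ELF3 was not tested.

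Of the basal factors, TP63 (ENSG00000073282, chromosome 3, 189631389 to 189897276, plus strand) was low throughout. It had 8 and 11 counts in shNC, 1 and 4 with shHMGA2-1, and 16 and 13 with shHMGA2-2, or at most 0.13 FPKM in any library. The lines did not overlap, with shHMGA2-1 lowest. In shHMGA2-1 against shNC its log2 fold change was -1.95 (SE 0.76, edgeR adjusted p = 0.0492), and TP63 met the DEG criterion in 2 of 13 alternatives (by DESeq2 adjusted p = 0.212). The counts of shNC were 4.01 times those of shHMGA2-1 after scaling for depth (95% counting interval 1.45 to 13.8). In shHMGA2-2 the log2 fold change was 0.53 (SE 0.55, edgeR adjusted p = 0.429). Between the knockdown lines TP63 was higher in shHMGA2-2 (log2 2.48, SE 0.70, edgeR adjusted p = 0.00498). As TP63 would not have passed the filter on low counts without shHMGA2-2, this difference is no support. The call was kept in 9 of 13 alternatives. It was lost without shHMGA2-1 replicate 1 (log2 1.81, edgeR adjusted p = 0.0589), while without replicate 2 the log2 value was 3.71.

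FOXC1 (ENSG00000054598, chromosome 6, 1609915 to 1613897, plus strand) was the member with the highest level in shNC and shHMGA2-1. It was counted 466 and 501 times in shNC, 374 and 473 times in shHMGA2-1, and 322 and 289 times in shHMGA2-2. Its mean level was 7.15 ± 0.368 FPKM (SD, n = 2) in shNC, 6.21 ± 1.04 FPKM in shHMGA2-1 and 4.64 ± 0.382 FPKM in shHMGA2-2. Both shHMGA2-2 libraries were below all others. In counts and FPKM the shNC and shHMGA2-1 libraries overlapped, with 6.94 FPKM in shHMGA2-1 replicate 2 and 6.89 FPKM in shNC replicate 1. With the scaling used for the test they did not quite overlap, at 27.8 and 28.6 CPM in these libraries. FOXC1 fell 1.67-fold in shHMGA2-2 (log2 -0.74, SE 0.12, edgeR adjusted p = 1.58e-05), short of 2-fold. In shHMGA2-1 its log2 fold change was -0.27 (SE 0.12, edgeR adjusted p = 0.0906). The lines differed by -0.47 (SE 0.13, edgeR adjusted p = 0.00285), with adjusted p = 0.0750 without shHMGA2-1 replicate 2 and 0.0821 without shHMGA2-2 replicate 2.

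**Figure D2:**
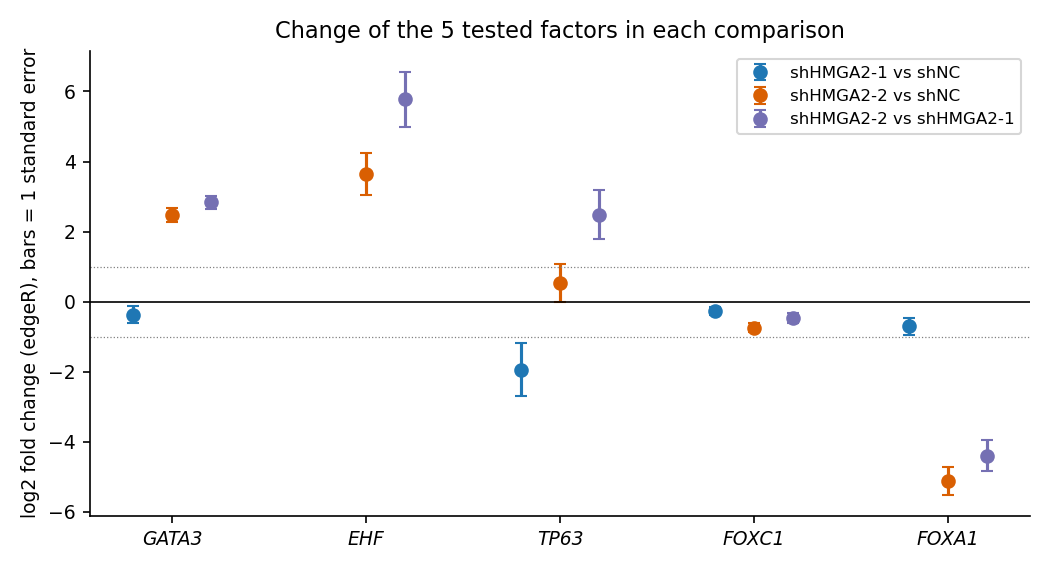
Log2 fold changes of the 5 tested factors (vertical axis, edgeR) in 3 comparisons, with bars of 1 standard error and dotted lines at 2-fold. GATA3 stands at 2.47 and FOXA1 at -5.11 in shHMGA2-2 against shNC, and no point is drawn for EHF in shHMGA2-1, where both groups were at or under 3 counts.

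Per length, the order of the detected factors changed in shHMGA2-2. In shNC the mean levels were 7.15 FPKM for FOXC1, 1.36 for FOXA1 and 0.86 for GATA3, and no library of one overlapped another. In shHMGA2-1 the order was the same, at 6.21, 0.87 and 0.695 FPKM. In shHMGA2-2 GATA3 (5.17 ± 0.679 FPKM, SD, n = 2) and FOXC1 (4.64 ± 0.382 FPKM) overlapped and FOXA1 was at 0.04 FPKM. GATA3 made up 10.6% and 7.43% of the members' summed FPKM in shNC, 10.5% and 7.58% with shHMGA2-1, and 46.1% and 53.7% with shHMGA2-2. The sum itself was 9.53 and 9.55 FPKM in shNC, 7.08 and 8.57 FPKM with shHMGA2-1, and 10.2 and 10.5 FPKM with shHMGA2-2, without overlap between lines. Among all tested genes in a library, 24.9% to 29.7% had a lower FPKM than GATA3 in shNC, 21.9% to 23.0% in shHMGA2-1, and 55.9% to 59.5% in shHMGA2-2.

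Relatives of the members in the same factor families were compared next, 31 genes of which 19 were tested and 8 were at or under 3 counts in all libraries. In shHMGA2-1, 2 had an adjusted p under 0.05 and were higher and 10 were lower, with 0 DEGs higher and 3 lower. In shHMGA2-2, 6 were higher and 8 lower, with 4 DEGs higher and 5 lower. The median log2 change was -0.41 in shHMGA2-1 and -0.21 in shHMGA2-2, against 0.01 and 0.03 over all genes tested. These counts include the members themselves. Over all genes tested, 33.5% had an adjusted p under 0.05 in shHMGA2-1 and 58.8% in shHMGA2-2. For this and the following lists, 8.49% of all genes tested were DEGs in shHMGA2-1 and 21.3% in shHMGA2-2, and no list was tested as a set.

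FOXA2, a forkhead factor of endoderm and the close relative of FOXA1, had the largest change of the families. It was counted 772 and 847 times in shNC, 692 and 661 times in shHMGA2-1, and 4 and 0 times in shHMGA2-2. Its mean level of 17.5 FPKM in shNC was above that of each member, and it fell by 8.65 on the log2 scale in shHMGA2-2 (SE 0.26, edgeR adjusted p = 1.01e-18). In shHMGA2-1 it fell by 0.34 (edgeR adjusted p = 0.0178). FOXA3, the remaining FOXA gene, had 3 and 8 counts in shNC, 15 and 10 with shHMGA2-1, and 22 and 27 with shHMGA2-2, where its log2 change was 2.05 (edgeR adjusted p = 0.00235). FOXA1 and FOXA2 thus fell in shHMGA2-2, while the low FOXA3 had more counts there. FOXA3 would not have passed the filter on low counts without shHMGA2-2, so its place among the DEGs is no support.

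GATA3 rose in shHMGA2-2, and GATA6, a factor of endoderm and heart, rose there by less, 1.57-fold. GATA2 had log2 changes of 0.40 in shHMGA2-1 and 0.22 in shHMGA2-2 (edgeR adjusted p = 0.00724 and 0.107). GATA6 had 112 and 122 counts in shNC, 67 and 41 with shHMGA2-1, and 191 and 197 with shHMGA2-2, with log2 changes of -1.19 and 0.65 (edgeR adjusted p = 7.57e-05 and 0.00255). The atypical GATA repressor TRPS1 fell in shHMGA2-2 (log2 -1.32, edgeR adjusted p = 4.92e-08). Of the p63 family, TP73 rose by 0.84 on the log2 scale in shHMGA2-2 (edgeR adjusted p = 0.000434). Among ETS relatives, ELF1 fell in shHMGA2-2 (log2 -1.16, edgeR adjusted p = 1.53e-10), opposite to EHF. NR3C2, the mineralocorticoid receptor, fell in both lines, with 128 and 152 counts in shNC, 32 and 20 with shHMGA2-1, and 14 and 2 with shHMGA2-2. Its log2 changes were -2.50 and -4.19 (edgeR adjusted p = 3.95e-07 and 7e-10).

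**Figure D3:**
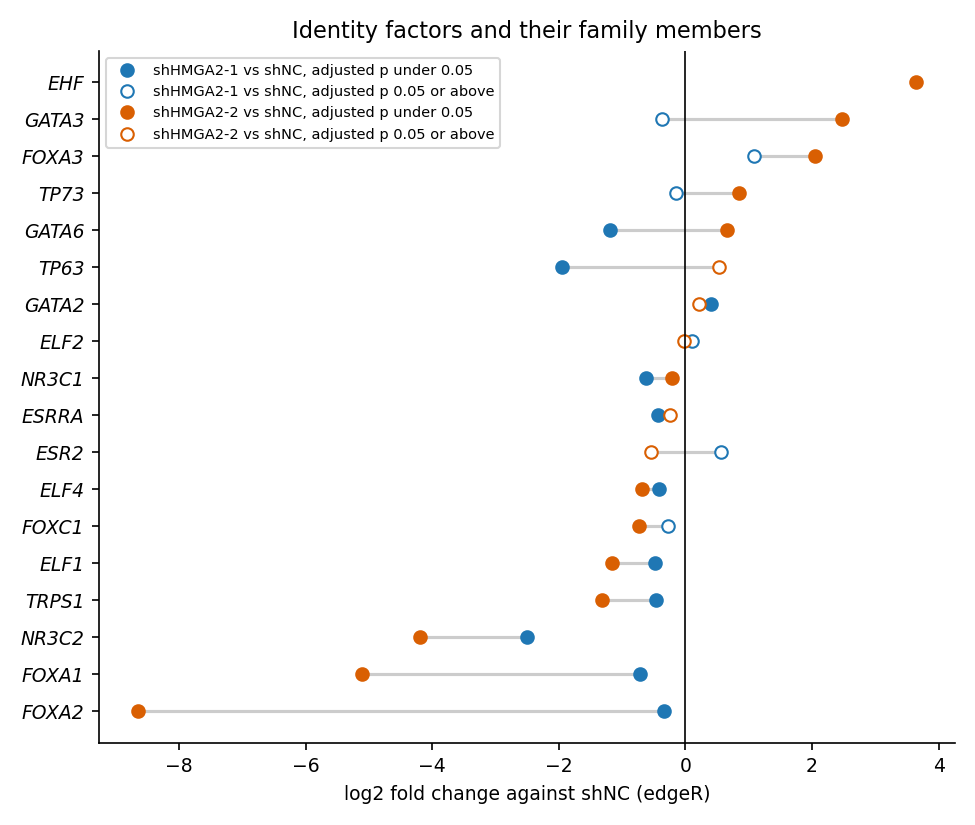
Log2 fold changes against shNC (horizontal axis, edgeR) of 18 tested factors of the families, blue for shHMGA2-1 and orange for shHMGA2-2, filled where the adjusted p was under 0.05. FOXA2 and FOXA1 lie farthest to the left in shHMGA2-2 and EHF and GATA3 farthest to the right, and EHF has no blue point because both groups were at or under 3 counts.

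Proteins that partner these factors at their targets were compared as well. Of 25 co-regulators, 21 were tested, and 0 were DEGs higher and 3 lower in shHMGA2-1, against 1 higher and 5 lower in shHMGA2-2. The median log2 changes were -0.23 and -0.34. ZFPM2, which binds GATA factors as a cofactor, fell by 1.06 and 2.59 on the log2 scale (edgeR adjusted p = 0.00012 and 6.93e-10). CREBBP, a histone acetyltransferase, fell by 1.04 and 1.14 (edgeR adjusted p = 2.52e-10 and 1.1e-11). GREB1, an estrogen receptor cofactor, fell by 1.97 in shHMGA2-2 (edgeR adjusted p = 0.00413), from 37 and 12 counts in shNC to 7 and 6. Its log2 change in shHMGA2-1 was -0.30 (edgeR adjusted p = 0.671).

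Other luminal genes did not move one way. Of 36 listed, 21 were tested, with 5 DEGs higher and 2 lower in shHMGA2-1, and 5 higher and 4 lower in shHMGA2-2. The median log2 change was 0.46 in shHMGA2-1 and -0.10 in shHMGA2-2. The tight junction gene CLDN3 had 0 and 5 counts in shNC, 15 and 12 with shHMGA2-1, and 33 and 46 with shHMGA2-2 (edgeR adjusted p = 0.0192 and 1.27e-05). Its relative CLDN4 went the other way, from 241 and 244 counts in shNC to 36 in both shHMGA2-1 libraries and 37 and 49 in shHMGA2-2. ESRP2, an epithelial splicing factor, rose by 2.67 on the log2 scale in shHMGA2-2 (edgeR adjusted p = 1.79e-08), while the luminal keratin KRT19 fell by 2.46 (edgeR adjusted p = 9.43e-11). In shHMGA2-1, ALDH1A3, a retinaldehyde dehydrogenase, rose by 2.12 (edgeR adjusted p = 1.12e-08), and the prolactin receptor PRLR fell by 1.10 (edgeR adjusted p = 6.85e-06).

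Known targets of the estrogen and progesterone receptors were read beside these receptors, which were themselves at or near the floor. Of 27 listed, 18 were tested, with 0 DEGs higher and 1 lower in shHMGA2-1, and 2 higher and 7 lower in shHMGA2-2. The median log2 change was -0.12 in shHMGA2-1 and -0.78 in shHMGA2-2. AREG, an EGF family ligand, fell by 1.59 on the log2 scale in shHMGA2-1 (edgeR adjusted p = 5.38e-05), and the nuclear receptor corepressor NRIP1 fell by 1.94 in shHMGA2-2 (edgeR adjusted p = 8.66e-13). KCNK5, a potassium channel, had 0 counts in all shNC and shHMGA2-1 libraries and 78 and 95 in shHMGA2-2, at least 27.2-fold higher than in shNC at 3 counts per library. TPD52L1, a tumor protein D52 relative, rose by 1.55 in shHMGA2-2 (edgeR adjusted p = 0.00111).

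Of 34 basal and myoepithelial genes, 20 were tested, with 2 DEGs higher and 3 lower in shHMGA2-1, and 9 higher and 4 lower in shHMGA2-2. The median log2 change was -0.29 in shHMGA2-1 (-0.36 over the 18 genes above 3 counts in a library of either group) and 0.87 in shHMGA2-2. The summed level of the list was 5760 to 5780 CPM in shNC, 4330 to 4710 in shHMGA2-1 and 3200 to 3360 in shHMGA2-2. In shNC and shHMGA2-1 most of that sum was ITGB1, an integrin subunit of most adherent cells, with a mean of 3890 CPM in shNC, 3330 in shHMGA2-1 and 1410 in shHMGA2-2. EGFR fell by 1.54 on the log2 scale in shHMGA2-2 (edgeR adjusted p = 7.11e-16). The basal keratin gene KRT5 had 0 counts in all libraries and KRT14 at most 2. KRT16, a keratin of stressed epidermis, had 0 counts in shNC, 1 in each shHMGA2-1 library and 30 and 17 with shHMGA2-2, at least 7.44-fold higher against 3 counts per library. BCL11A, a zinc finger factor of basal-like tumors, had 2 and 1 counts in shNC, 0 and 3 with shHMGA2-1, and 17 and 25 with shHMGA2-2 (edgeR adjusted p = 0.000298). Like KRT16 and KCNK5, it passed the filter on low counts only through shHMGA2-2. MYH11, also a DEG higher in shHMGA2-2, had 4 and 8 counts in shNC, 16 and 8 with shHMGA2-1, and 14 and 19 with shHMGA2-2. It would not have passed without shHMGA2-2. The places of these genes among the DEGs higher in shHMGA2-2, and their part in the medians, are no support. The oxytocin receptor OXTR fell by 1.63 in shHMGA2-2 (edgeR adjusted p = 9.06e-09). In shHMGA2-1, the smooth muscle genes ACTA2 and MYLK had log2 changes of 1.03 and -1.12 (edgeR adjusted p = 0.0103 and 1.64e-08). Their changes in shHMGA2-2 were 0.80 and 1.36 (edgeR adjusted p = 0.0292 and 7.49e-12), so MYLK moved in opposite directions.

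Of 20 target genes of p63, 12 were tested, with 2 DEGs higher and 2 lower in shHMGA2-1, and 5 higher and 2 lower in shHMGA2-2. The median log2 change was -0.03 and 0.33. ITGB4, the hemidesmosome integrin, rose by 2.79 on the log2 scale in shHMGA2-1 (edgeR adjusted p = 5.17e-15), whereas the laminin chain LAMB3 fell by 1.40 there (edgeR adjusted p = 1.02e-12). COL17A1, another hemidesmosome component, fell by 1.19 in shHMGA2-1 (edgeR adjusted p = 0.000457). ITGB4, LAMB3 and COL17A1 all rose in shHMGA2-2, by 1.08, 1.29 and 1.65 (edgeR adjusted p = 1.08e-07, 1.92e-13 and 3.17e-08). The Notch ligand JAG2 rose in both lines, by 1.95 and 2.16 (edgeR adjusted p = 1.16e-10 and 2.6e-12). In shHMGA2-2, ADA (adenosine deaminase) rose by 2.02, and DUSP6 and IGFBP3 fell by 1.60 and 1.52 (edgeR adjusted p = 2.66e-09, 5.23e-15 and 1.96e-14).

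**Figure D4:**
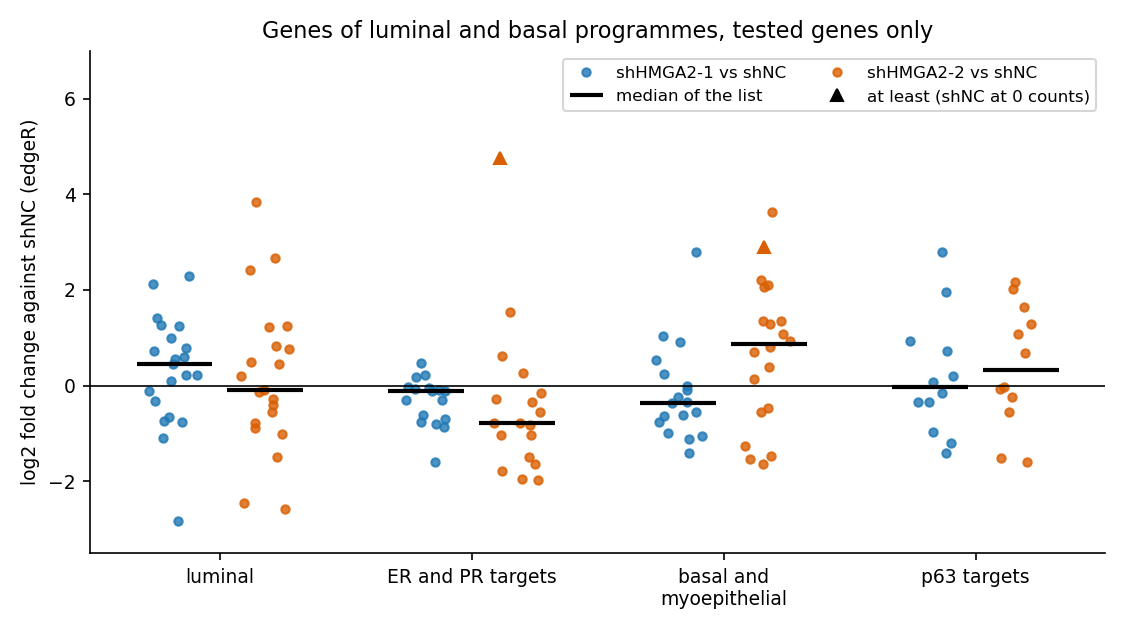
Log2 fold changes against shNC (vertical axis) of the tested genes of 4 lists, blue for shHMGA2-1 and orange for shHMGA2-2, with the median as a bar. Triangles are lower bounds for genes with 0 counts in shNC (KCNK5 and KRT16), and genes at or under 3 counts in both groups are left out. The medians in shHMGA2-2 are 0.87 for basal and -0.78 for receptor target genes. Both lists include genes that passed the filter on low counts only through shHMGA2-2.

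The genes whose pattern over the 6 libraries was nearest to a member were found by the root mean square difference of centered log2 CPM, for the 3 members with a mean of at least 1 CPM. For GATA3 they included HENMT1 (0.123), a small RNA methyltransferase, and PTGES (0.195), prostaglandin E synthase. HENMT1 passed the filter on low counts only through shHMGA2-2, where it had 38 and 40 counts, so its nearness to GATA3 is no support. PTGES had 91 and 55 counts in shNC, 88 and 71 with shHMGA2-1, and 478 and 553 with shHMGA2-2. For FOXA1 the nearest were F13A1 (0.312), a coagulation factor subunit, THRB (0.37), a thyroid hormone receptor, and the noncoding LINC00862 (0.416). THRB had 251 and 246 counts in shNC, 93 and 106 with shHMGA2-1, and 7 and 3 with shHMGA2-2. FOXC1 lay near DPY19L4 (0.036), UEVLD (0.039) and TMEM30A (0.053).

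Genes listed as neighbors of the members on the chromosome, some of them far away, moved in either direction. Of 28 listed, 27 were in the table and 17 tested, with 1 DEG higher and 2 lower in shHMGA2-1, and 2 higher (EHF among them) and 4 lower in shHMGA2-2. Near GATA3, TAF3 had a log2 change of 0.14 in shHMGA2-2 (edgeR adjusted p = 0.24). GATA3-AS1, antisense to GATA3 over 3035 bases, had at most 1 count in 5 libraries and 8 in shHMGA2-2 replicate 2. Near FOXC1, the forkhead gene FOXF2 rose in both lines, from 12 and 11 counts in shNC to 79 and 104 in shHMGA2-1 and 94 and 104 in shHMGA2-2 (edgeR adjusted p = 4e-08 and 4.78e-09). Its neighbor FOXQ1 fell by 1.71 on the log2 scale in shHMGA2-1 (edgeR adjusted p = 0.00877). Near PGR, the channel gene TRPC6 had 16 and 15 counts in shNC, 3 and 5 with shHMGA2-1, and 0 in both shHMGA2-2 libraries. TRPC6 passed the filter on low counts only through shNC, where it was high, so its place among the DEGs is no support. P3H2, beside TP63 and coding for a collagen prolyl hydroxylase, fell by 1.19 in shHMGA2-2 (edgeR adjusted p = 9.38e-13).

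Markers of MDA-MB-231 and of other cells were read beside these values. Of 12 MDA-MB-231 markers, 7 were tested, with 0 DEGs in shHMGA2-1 and 2, both lower, in shHMGA2-2 (EGFR, and ZEB1, a repressor of epithelial genes, by 1.50 on the log2 scale, edgeR adjusted p = 9.94e-15). The other tested markers were AXL, CAV1, CD44, VIM and ERBB2, with mean levels in shNC of 228, 157, 65.4, 425 and 6.56 FPKM. Of 20 leukocyte markers, 12 were at or under 3 counts in all libraries, with the defining PTPRC at most 2. The summed level of the 20 was 9.96 to 12.0 CPM in shNC, 4.84 to 6.41 in shHMGA2-1 and 2.63 to 3.07 in shHMGA2-2. Of the 3 tested leukocyte markers, LCP1 and HCLS1 were DEGs lower in both lines and CORO1A a DEG higher in shHMGA2-1. HCLS1 passed the filter on low counts only through shNC, where it was high, so its fall is no support. Of 17 fibroblast and endothelial markers, 5 were tested, and the sum was 60.3 to 71.0 CPM in shNC, 49.1 to 58.4 in shHMGA2-1 and 43.5 to 43.6 in shHMGA2-2. In shHMGA2-1 COL1A1 was a DEG higher and PDGFRB and PECAM1 DEGs lower, and in shHMGA2-2 PDGFRB was higher and PECAM1 lower. PECAM1, like HCLS1, passed the filter only through shNC. The fibroblast genes PDGFRA, DCN and LUM had 0 counts in all 6 libraries. The part of other cells in the members' values was not tested.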

How the data were processed

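A deposited table gives raw counts and FPKM values of each gene in the 6 libraries, beside its position, exonic size and unused GO and KEGG terms. Per the labels' processing notes, HISAT2 (2.2.1), HTSeq (0.6.1) and GRCh38.p13 were used, and the strand setting is not given in the sources used here. The deposited FPKM values were recomputed from counts, exonic size and library total for 100% of values, within 0.0051. The paper names DESeq2, a 2-fold change and an FDR of 0.05.

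Groups came from the sample titles. The counts were tested with edgeR (4.0.16, R 4.3.3): filterByExpr by group, TMM, the quasi-likelihood test in a model of 3 lines, and Benjamini-Hochberg adjustment over the 16110 genes kept of 61806. DEGs were genes at adjusted p < 0.05 that changed at least 2-fold. The 4 shHMGA2 libraries were also compared with shNC as a single group. Ratios of summed counts have exact conditional 95% intervals (scipy 1.17.1). Promoters came from RefSeq (GRCh38.p14). Alternatives were DESeq2 (1.42.0), limma (3.58.1) on log2(FPKM + 1) or log2(FPKM + 0.1), RLE and upper quartile scaling, other filters, the replicate block and each library left out. The scripts were tested on simulated data.

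The members and gene lists were chosen with earlier results of these data known. With some genes not reported here, the text names all members, HMGA2, every MDA-MB-231 marker, the DEGs of the factor families, up to 2 DEGs with the largest rise and 2 with the largest fall of each list in each line, and the 3 nearest patterns of members with a mean of at least 1 CPM. TP73, GATA2, ITGB1, MYH11, KRT5, KRT14, APIP, TAF3, P3H2, PTPRC, PDGFRA, DCN, LUM and the antisense genes of GATA3 and ELF3 were named after their values were seen.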

Additional observations from a re-analysis of the deposited data

Results flagged for a closer look

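The 5 tested members had an adjusted p under 0.05 in a direct edgeR test of shHMGA2-2 against shHMGA2-1. The log2 difference was 2.83 for GATA3, -4.40 for FOXA1, 5.78 for EHF, 2.48 for TP63 and -0.47 for FOXC1, with the adjusted p-values given above. EHF passed the filter on low counts only through shHMGA2-2, and TP63 would not have passed without that line. The values of EHF and TP63 are therefore no support for a difference between the lines. The hairpin, the clone and the degree of HMGA2 loss differ together between these lines and cannot be told apart.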

How the results depend on the processing

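Of 272 values of the tested members under alternatives, 252 kept their direction and their side of the DEG criterion, 18 no longer met it, and 2 turned. Those 2 were TP63 in the pooled comparison, where the log2 value was -0.23, 0.01 without shNC replicate 2 and 0.13 without shHMGA2-1 replicate 1, in a range of -0.74 to 0.13 with a library left out. TP63 was called in none of these. The causes were not tested. In shHMGA2-1 the count of members that were DEGs was 1, and 0 with upper quartile scaling, DESeq2, no filter, a mean CPM of at least 1, either limma setting or the replicate block, and 0 to 1 with a library left out. With all 6 libraries kept, the count of member DEGs between the knockdown lines was 4, and 3 with DESeq2 or limma on log2(FPKM + 0.1). It was 2 with a mean CPM of at least 1 (EHF and TP63 are then not tested) and 1 with limma on log2(FPKM + 1). In shHMGA2-2 against shNC the count was 3, and 2 with a mean CPM of at least 1 or limma on log2(FPKM + 1).

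Over all genes, limma on log2(FPKM + 1) called 294 DEGs in shHMGA2-1 (1367 by edgeR), 1226 in shHMGA2-2 (3432), 784 between the lines (2432) and 192 in the pooled comparison (498). DESeq2 called 1025 in the pooled comparison, the replicate block 138, and leaving out a library 4 to 480, with 4 without either shNC library. The replicate numbers did not pair the libraries, as deviations of same-numbered libraries correlated at -0.0242, 0.00364 and -0.179. With the replicate block, TP63 in shHMGA2-1 had an adjusted p of 0.0721. A crossed block, added after seeing the data, gave 2441 DEGs between the knockdown lines. Upper quartile scaling moved the median of all genes by 0.115 (log2) in shHMGA2-2. ESR1, PGR, ELF3 and ELF5 were too low to test at this depth.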
